A study of Homo sapiens with 12 samples.

Results

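SAT1, SAT2, SMOX and PAOX, the genes tied to polyamine breakdown, are 4 of the 39266 genes in the count table and were found in it by symbol. All 4 passed the filter on low counts that left 20820 genes for testing, PAOX with only 2 to 23 counts per library. Messenger RNA had been sequenced from PC9-OR, a drug-resistant non-small cell lung cancer line related to PC9, in 12 libraries. The 4 groups held 3 libraries each: Control, osimertinib (OSI, an inhibitor of the receptor tyrosine kinase EGFR), dauricine (DAC, a plant alkaloid), and both together (DAC+OSI). The series title names SAT1 and ferroptosis, cell death that follows iron-dependent oxidation of membrane lipids, and the design text asks how the compounds compare alone and combined. Doses, exposure times, and whether the line is 1 clone are not given in the labels. Whether the 3 libraries of a group came from separate cultures is not given either, so p-values rest on library-to-library spread alone, part or all of which may be technical.

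Total counts ran from 24.9 M (mega-counts) in DAC+OSI 2 to 66.9 M in DAC+OSI 3. The limit that a count of 0 allows, 3 counts, was worth 0.0449 to 0.120 CPM (counts per mega-count of the library). These floors use total counts alone, whereas the levels below are also scaled between libraries. Control 2 and DAC+OSI 2 stood apart. Across genes, their deviation from the group mean followed gene GC content with a Spearman rho of 0.56 and 0.57, against -0.52 to -0.37 in the other libraries of the 2 groups and -0.09 to 0.06 in OSI and DAC. SAT1 has a GC content of 43.3%, whereas SAT2, SMOX and PAOX have 56.3%, 61.0% and 63.3%, so changes of these 4 genes are given with and without these 2 libraries. Of 9 markers of a lung adenocarcinoma epithelial line, all but NKX2-1 reached 1 CPM in some library, and their sum ran from 11810 to 21140 CPM. KRT8 alone gave 3772 to 8591 CPM of it. NKX2-1, which marks lung epithelium, was below 1 CPM throughout, and NAPSA ran only from 0.852 to 1.61 CPM.

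Polyamines (putrescine, spermidine and spermine) are small positively charged molecules that bind nucleic acids and are needed for growth. SAT1 (spermidine/spermine N1-acetyltransferase 1) starts their breakdown by acetylating spermidine and spermine, and PAOX, an oxidase of the peroxisome, converts the acetylated forms back towards putrescine. SMOX (spermine oxidase) takes a direct route from spermine to spermidine, and both oxidases release hydrogen peroxide and an aldehyde. SAT2 is a close relative of SAT1 that acts mainly on thialysine. SAT1 activity has been tied to lipid peroxidation through the lipoxygenase ALOX15.

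The promoters of SAT1 and SAT2 are shown because RefSeq's table of promoters held only these 2 of the 4 genes. It has 2 overlapping starts for SAT2, of which the upstream one is shown. The 250 bases before the gene start are given from GRCh38.p14. The SAT1 window is chrX:23782923-23783172 on the plus strand, with a GC content of 66.4%. The SAT2 window, at chr17:7627877-7628126 on the minus strand, has a GC content of 58.8%. Capitals mark a match to the core letters of the antioxidant response element.
SAT1: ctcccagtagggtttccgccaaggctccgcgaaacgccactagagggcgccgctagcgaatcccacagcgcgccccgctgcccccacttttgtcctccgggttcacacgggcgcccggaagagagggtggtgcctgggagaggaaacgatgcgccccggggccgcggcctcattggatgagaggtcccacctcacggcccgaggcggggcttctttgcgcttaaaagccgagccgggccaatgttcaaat
SAT2: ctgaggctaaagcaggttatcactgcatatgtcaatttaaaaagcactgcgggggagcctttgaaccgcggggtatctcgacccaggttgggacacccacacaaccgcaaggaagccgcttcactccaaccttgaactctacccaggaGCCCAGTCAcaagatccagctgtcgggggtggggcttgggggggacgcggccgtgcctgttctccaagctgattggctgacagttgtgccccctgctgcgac
5 motifs were searched on both strands: TGACNNNGC (antioxidant response element core), TGANTCA (AP-1), TGACGTCA (CRE), CACGTG (E-box) and TGATGNAAN (ATF4 composite). The SAT1 window held none of these letters. The SAT2 window held the first, read on the strand opposite to the gene, starting at base -102 before the gene start. Of 35116 windows of the same length, 10.91% held TGACNNNGC, 6.57% TGANTCA, 1.65% TGACGTCA, 6.34% CACGTG and 3.13% TGATGNAAN. A match is a description of letters, and no binding was measured.

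SAT1 (ENSG00000130066, chromosome X) was higher in both dauricine groups and not distinguishable from Control under osimertinib alone. Its level was 79.3, 61.8 and 78.5 CPM in Control libraries 1, 2 and 3, and 92.5, 75.9 and 78.5 CPM in OSI. In DAC it was 128, 133 and 153 CPM. The DAC+OSI libraries gave 197, 106 and 191 CPM. All 6 libraries with dauricine lay above all 6 without it. The share of all genes that separate without overlap is not given, here or for the genes below. Within DAC+OSI the second library was far below the others, and the other 2 lay above every DAC library. In edgeR's quasi-likelihood test with Benjamini-Hochberg adjustment over all genes tested, SAT1 rose 1.89-fold under DAC against Control, a log2 change of 0.92 ± 0.21 (SE; adjusted p = 0.0150). It rose 2.25-fold under DAC+OSI against Control, a log2 change of 1.17 ± 0.21 (adjusted p = 0.00102). Against OSI, the DAC+OSI level was 2.0-fold higher (log2 1.0 ± 0.21, adjusted p = 0.00491) and the DAC level 1.68-fold higher (log2 0.75 ± 0.21, adjusted p = 0.0216). OSI against Control gave a log2 change of 0.17 with a 95% interval of -0.27 to 0.61 (adjusted p = 0.630).

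**Figure D1:**
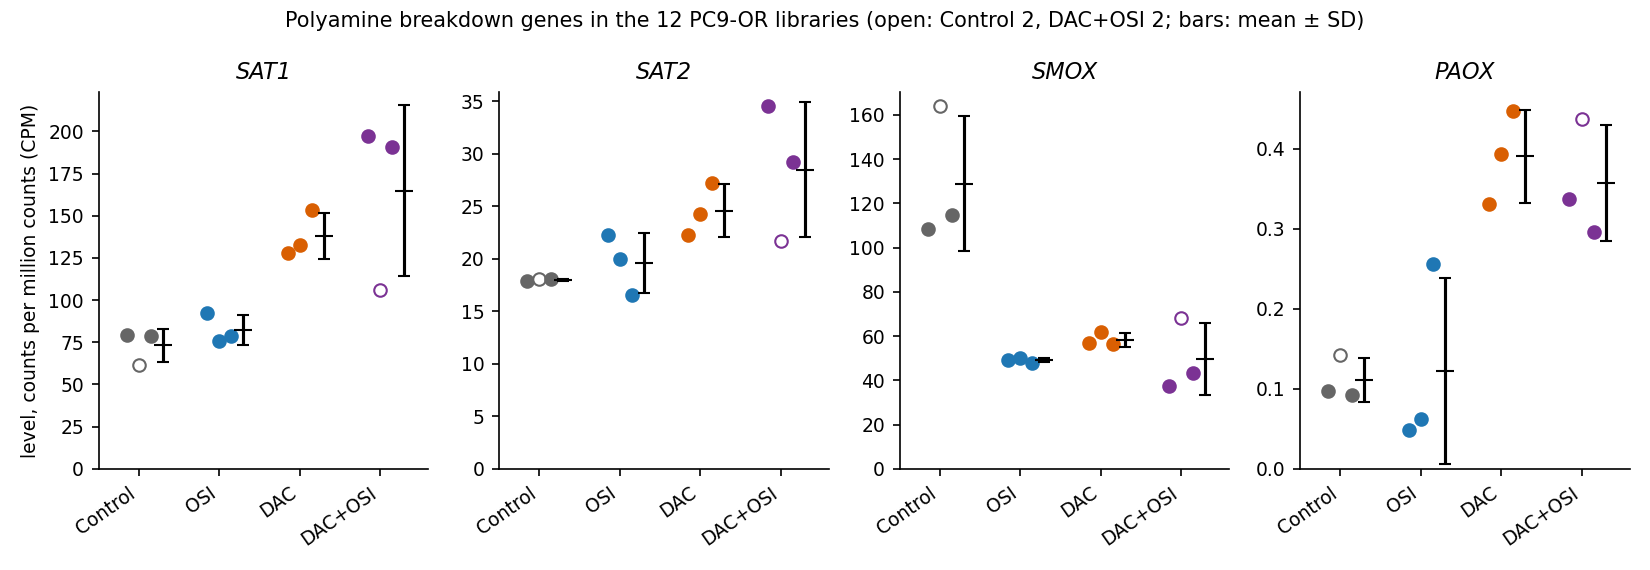
Levels of SAT1, SAT2, SMOX and PAOX in each of the 12 libraries (CPM on the TMM scale), with bars for the group mean ± SD over 3 libraries and open points for Control 2 and DAC+OSI 2. In SAT1 the libraries with dauricine sit at 106 CPM or above and those without at 92.5 CPM or below, and in SMOX every treated library sits below every Control library.

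Without Control 2 and DAC+OSI 2, SAT1 stood at 78.9 ± 0.507 CPM (SD, n = 2) in Control and 194 ± 4.78 CPM (SD, n = 2) in DAC+OSI, against 82.3 ± 8.93 (SD, n = 3) in OSI and 138 ± 13.5 (SD, n = 3) in DAC. Whether the combination exceeded dauricine alone depended on DAC+OSI 2. With all 12 libraries the log2 difference between DAC+OSI and DAC was 0.26, with a 95% interval of -0.19 to 0.70 (edgeR adjusted p = 0.451). Leaving out DAC+OSI 2 made it 0.49 (adjusted p = 0.0146), and leaving out both deviating libraries also made it 0.49 (adjusted p = 0.000231). Both libraries were singled out from these same counts, so p-values of fits without either or both, here and below, are no independent support. The adjusted p for this difference ranged from 0.000231 to 0.741 over 22 alternatives. The biological coefficient of variation was 8.8% without both and 20.9% with all 12 libraries, and 23.7% of all genes were called in that comparison without both, against 10.6% with all 12. The call of DAC against Control was lost without Control 2 (log2 0.79, adjusted p = 0.0683) and without DAC 3 (log2 0.81, adjusted p = 0.0767), and its adjusted p ranged from 1.80e-06 to 0.0767 over the alternatives. The call of DAC against OSI was lost without OSI 2, OSI 3, DAC 2 or DAC 3 (log2 0.68, 0.69, 0.76 and 0.65), with adjusted p from 2.57e-07 to 0.0838. The rise under DAC+OSI kept its call in all 22 alternatives, against Control with adjusted p from 1.44e-09 to 0.0249 and against OSI with 9.23e-10 to 0.0411.

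**Figure D2:**
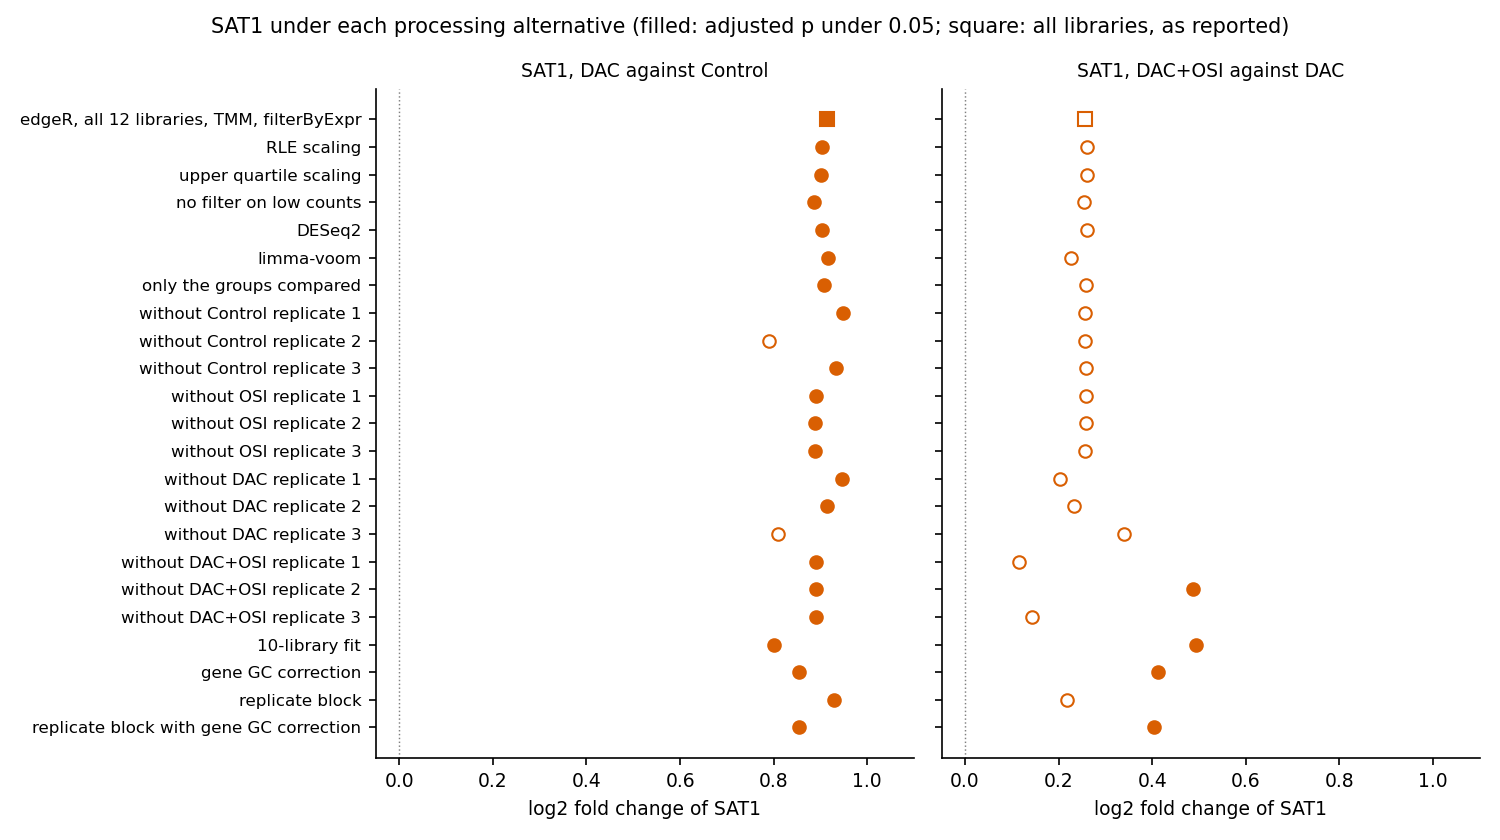
log2 fold change of SAT1 in DAC against Control (left) and DAC+OSI against DAC (right), with all 12 libraries (square) and under each alternative (circles), filled where the adjusted p was under 0.05. DAC against Control ran from 0.79 to 0.95, and DAC+OSI against DAC ran from 0.12 to 0.49, with calls in the 4 fits that left out DAC+OSI 2 or corrected for GC content.

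Markers of other cell types were also highest in DAC+OSI. The summed level of 6 fibroblast markers was 27.3 to 94.8 CPM in DAC+OSI, 11.2 to 22.3 in Control, 7.33 to 9.53 in OSI and 10.4 to 11.01 in DAC. The 5 immune markers summed to 13.2 to 37.3 CPM in DAC+OSI, 8.48 to 11.7 in Control, 7.97 to 9.12 in OSI and 13.5 to 15.7 in DAC. The 3 endothelial markers summed to 12.4 to 28.4 CPM in DAC+OSI, 4.95 to 5.33 in Control, 10.6 to 13.2 in OSI and 8.65 to 9.92 in DAC. The highest sum of each list was in DAC+OSI 2, the library with the lowest SAT1 level among those given dauricine. No marker was at 0 in all libraries, and 3 fibroblast markers and 1 immune marker stayed below 1 CPM throughout. The part of these transcripts in the results was not tested. In bulk RNA, fewer cells of a type and less RNA per cell cannot be told apart.

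SAT2 (ENSG00000141504, chromosome 17) showed smaller differences than SAT1, in the same direction under dauricine. Its level was 17.8, 18.1 and 18.0 CPM in Control, 22.2, 20.0 and 16.6 CPM in OSI, and 22.3, 24.3 and 27.2 CPM in DAC. In DAC+OSI the libraries gave 34.6, 21.7 and 29.2 CPM. All 3 DAC and all 3 DAC+OSI libraries lay above all Control libraries, and OSI overlapped Control. Under DAC+OSI SAT2 rose 1.59-fold against Control, a log2 change of 0.67 ± 0.17 (SE; edgeR adjusted p = 0.0104). That call was lost, at a log2 change of 0.63, when the spread came from the Control and DAC+OSI libraries alone, and the change was 0.83 without both deviating libraries. The comparison of DAC+OSI with OSI passed narrowly (log2 0.54 ± 0.17, adjusted p = 0.0432), with overlapping libraries, and lost its call without any 1 of the libraries except DAC+OSI 2, at log2 differences from 0.38 to 0.63. Without DAC+OSI 2 it was 0.67. DAC against Control gave a log2 difference of 0.45 with a 95% interval of 0.09 to 0.82 (adjusted p = 0.122). It was called without DAC+OSI 2, a library of neither group (log2 0.42, edgeR adjusted p = 0.0196). Its adjusted p ranged from 0.00665 to 0.404 over 22 alternatives.

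SMOX (ENSG00000088826, chromosome 20) moved the opposite way and was lower in all 3 treated groups. Its level was 108, 164 and 115 CPM in Control, with the second library well above the others. OSI gave 49.3, 50.2 and 48.0 CPM, DAC 56.7, 62.0 and 56.4 CPM, and DAC+OSI 37.3, 68.3 and 43.4 CPM. The highest treated library, DAC+OSI 2, was still below the lowest Control library. SMOX fell by 1.39 ± 0.21 on the log2 scale under OSI, which is 2.62-fold lower (SE; edgeR adjusted p = 0.000544). The fall was 2.21-fold under DAC (log2 -1.14 ± 0.21, adjusted p = 0.00472) and 2.60-fold under DAC+OSI (log2 -1.38 ± 0.21, adjusted p = 0.000352). These 3 calls held in all 22 alternatives. Without Control 2 and DAC+OSI 2 the log2 changes were -1.17, -0.94 and -1.47.

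SMOX in DAC+OSI was not separable from OSI with all 12 libraries. The log2 difference was 0.01, with a 95% interval of -0.44 to 0.46 (edgeR adjusted p = 0.983). It was -0.31 without DAC+OSI 2 (adjusted p = 0.145) and -0.30 without both deviating libraries (adjusted p = 0.00436), in a range of 0.00436 to 1.0 over 22 alternatives. The 3 DAC libraries lay above the 3 OSI libraries, by 0.25 on the log2 scale (adjusted p = 0.430). DAC+OSI against DAC gave -0.24 (adjusted p = 0.498) and was called, at -0.54, without DAC+OSI 2 (adjusted p = 0.0308, in a range of 3.80e-05 to 0.891). The interaction, the effect of DAC with OSI minus its effect without OSI, was 1.15 ± 0.29 on the log2 scale for SMOX, with a 95% interval of 0.52 to 1.79 and an adjusted p of 0.0568. The sum of the separate log2 falls under OSI and DAC was thus larger than the fall under both, by a margin that missed the threshold over all genes. It was called with the replicate number as a block (1.08, adjusted p = 0.0186), without the filter, with DESeq2, with the GC correction, without DAC+OSI 1 (1.35, adjusted p = 0.0238), without DAC+OSI 2 (0.86, adjusted p = 0.0166) and without both deviating libraries (0.64, adjusted p = 0.000237), in a range of 0.000237 to 0.160 over 21 alternatives. The interaction of SAT1 was 0.09, with a 95% interval of -0.54 to 0.71 (adjusted p = 0.927), and 0.43 without both deviating libraries (adjusted p = 0.0179). For SAT1 the range was 0.0179 to 1.0, and its interaction was -0.04 without DAC+OSI 1 and -0.02 without DAC+OSI 3.

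PAOX (ENSG00000148832, chromosome 10) was close to the limit of detection. It had 6, 6 and 4 counts in Control, 2, 3 and 12 in OSI, 18, 23 and 23 in DAC, and 19, 9 and 20 in DAC+OSI. All 6 libraries with dauricine, at 0.296 to 0.448 CPM, lay above all 6 without it, at 0.0482 to 0.256 CPM. Only in the 6 libraries with dauricine and in OSI 3 did PAOX reach the filter's cutoff of 0.207 CPM, so it was tested because of the groups in which it is high, and its tests are no independent support for a rise. The counts come to 0.111 ± 0.0273 CPM in Control, 0.122 ± 0.116 in OSI, 0.391 ± 0.0582 in DAC and 0.357 ± 0.0729 in DAC+OSI (SD, n = 3 each). DAC+OSI against Control was 3.12-fold (log2 1.64 ± 0.56, SE; edgeR adjusted p = 0.0455), and DAC against OSI was also 3.12-fold (log2 1.64 ± 0.54, adjusted p = 0.0493). DAC against Control, at log2 1.81 ± 0.55, missed the threshold (adjusted p = 0.0584). The 2 calls were fragile. With the replicate number as a block, DAC+OSI against Control was 1.64 (adjusted p = 0.0558) and DAC against OSI 1.71, neither called. DAC+OSI against Control lost its call without any 1 library except OSI 1 and OSI 3, at 1.48 to 1.83, and DAC against OSI without any 1 library except OSI 3 and DAC+OSI 2, at 1.27 to 1.73. Leaving out OSI 3, which has 12 counts against 2 and 3 in the others, gave 2.73 for DAC against OSI and turned OSI against Control from 0.17 to -0.95, which was not called (adjusted p = 0.405, in a range of 0.405 to 1.0 over 21 alternatives). Without OSI 3 or without DAC+OSI 2, DAC against Control was called, at 1.78 in both fits. Without both deviating libraries it was called at 2.0, and DAC+OSI against Control, at 1.70, was not. PAOX shares 158 exon bases (6.9% of its exons) with AL360181.3, a gene on the same strand that is also in the table, so reads of that stretch cannot be assigned.

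**Figure D3:**
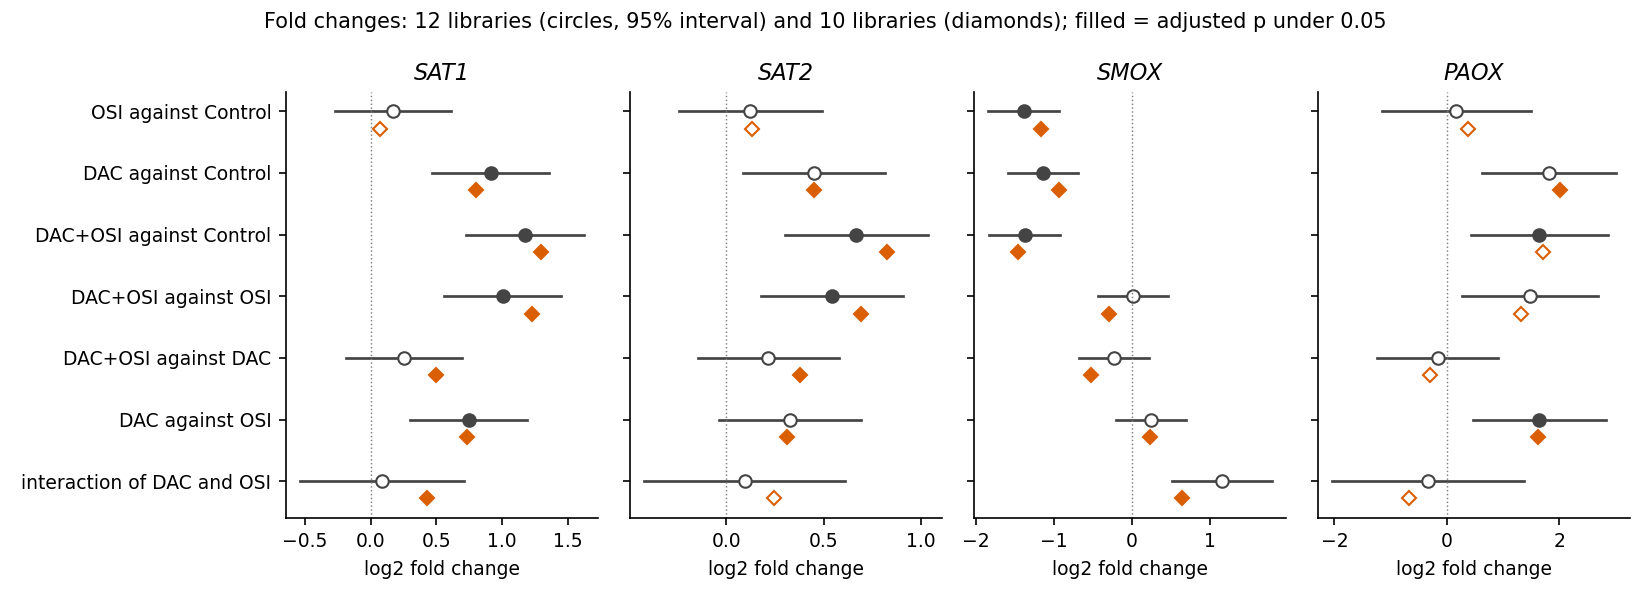
log2 fold changes of the 4 genes in the 6 pairwise comparisons and the interaction, from the edgeR fit of all 12 libraries (circles, with 95% intervals) and of the 10 left without Control 2 and DAC+OSI 2 (diamonds), filled where the adjusted p was under 0.05. SAT1 and SMOX lie on opposite sides of 0 in DAC and DAC+OSI against Control, and the intervals of PAOX are the widest.

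Of the 4 genes, OSI against Control called 0 higher and 1 lower, where 18.9% of all genes tested were called, 10.6% higher and 8.23% lower. DAC against Control called 1 higher and 1 lower, where 9.43% of all genes were called, 5.33% higher and 4.11% lower. DAC+OSI against Control called 3 higher, PAOX among them, and 1 lower, beside 28.1% of all genes, 15.4% higher and 12.8% lower. DAC+OSI against OSI called 2 higher and 0 lower, beside 17.0% (9.01% and 7.96%), and DAC against OSI called SAT1 and PAOX higher and 0 lower, beside 20.7% (10.2% and 10.5%). DAC+OSI against DAC, beside 10.6% (6.10% and 4.52%), and the interaction, beside 2.92% (1.01% and 1.91%), called 0 of the 4 by edgeR with all 12 libraries. In these last comparisons, only the interaction of SMOX had an unadjusted edgeR p under 0.05. With PAOX left aside, since it passed the filter through its high groups, the middle value of the other 3 genes against Control was that of SAT2, at 0.12, 0.45 and 0.67 under OSI, DAC and DAC+OSI, beside medians of -0.02, 0.01 and 0.03 over all genes. These comparisons share the Control libraries.

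The count of SAT1 divided by that of SMOX within a library does not depend on scaling between libraries. It was 0.732, 0.377 and 0.685 in Control, 1.88, 1.51 and 1.63 in OSI, 2.25, 2.14 and 2.72 in DAC, and 5.29, 1.56 and 4.40 in DAC+OSI. SMOX thus had more counts than SAT1 in every Control library and fewer in every treated one. The mean log2 ratio was -0.80 ± 0.53 in Control, 0.74 ± 0.16 in OSI, 1.24 ± 0.18 in DAC and 1.73 ± 0.95 in DAC+OSI (SD, n = 3 each). Against Control the ratio was 2.90-fold higher in OSI, 4.11-fold in DAC and 5.76-fold in DAC+OSI, with no overlap. Each of these gave p = 0.10 in a two-sided exact permutation test, the smallest that 3 against 3 allows, and 0.15 after adjustment over the 6 pairs of groups. DAC lay above OSI without overlap (1.42-fold, exact permutation p = 0.10). DAC+OSI overlapped OSI (exact permutation p = 0.30) and DAC (exact permutation p = 0.40) through its second library alone. After correction of each count for the library's trend with GC content, the ratio in DAC+OSI was 4.66, 3.16 and 3.96, above all other libraries, and DAC (1.92, 1.83 and 2.26) then overlapped OSI (1.96, 1.64 and 1.75).

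**Figure D4:**
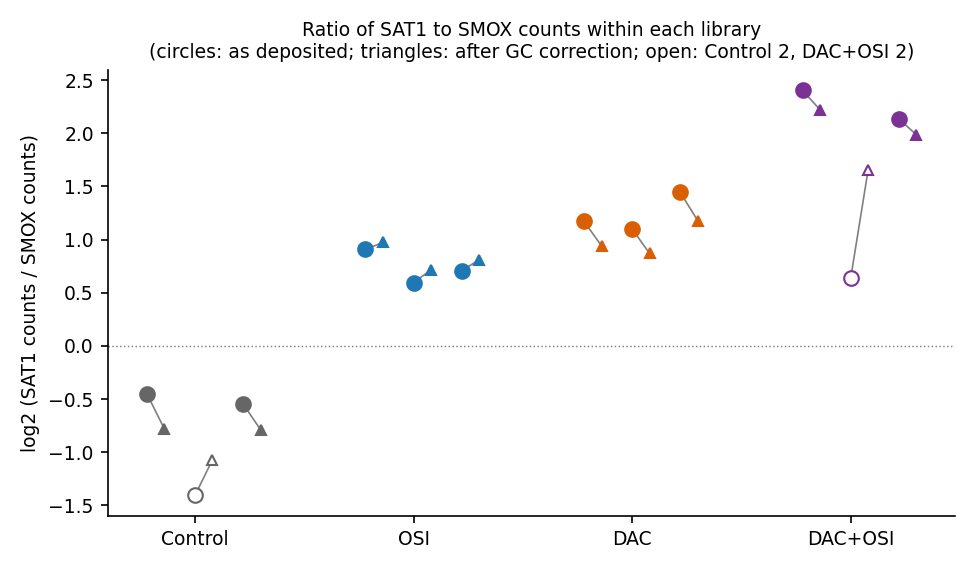
log2 of SAT1 counts over SMOX counts in each library by group, as deposited (circles) and after correction for the trend with GC content (triangles), open for Control 2 and DAC+OSI 2. All Control points lie below 0 and all treated points above it, and the ratio in DAC+OSI 2 moves from 1.56 to 3.16 with the correction.

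Per kilobase of merged exons, SMOX was the most abundant of the 4 in Control, at 43.8 ± 10.3 CPM per kilobase (SD, n = 3), ahead of SAT1 at 29.3 ± 3.95. SAT2 stood at 10.9 and PAOX at 0.0486. In the treated groups SAT1 came first, with 33.0 in OSI, 55.3 in DAC and 66.0 ± 20.3 in DAC+OSI, while SMOX stood at 16.7, 19.8 and 16.9. SAT2 at 17.3 and SMOX at 16.9 ± 5.56 were not separable in DAC+OSI. The order of SAT1 and SMOX in Control rests on the gene length: per merged exons the log2 ratio of SAT1 to SMOX was -0.56, and per longest transcript it was 0.23. SAT1 has 2498 bases of merged exons but a longest transcript of 1135 bases, and SMOX has 2946 and 2322.

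The other genes of the pathway were counted by role. With all 12 libraries 18.9%, 9.43% and 28.1% of all genes were called under OSI, DAC and DAC+OSI against Control, the shares beside which the counts of each list stand. Of 9 genes of polyamine synthesis 8 were tested, ARG1 being too low. Under OSI 0 rose and 2 fell, with a median log2 change of -0.21. Under DAC 0 rose and 0 fell, with a median of -0.11, and under DAC+OSI 1 rose and 3 fell, with a median of -0.30. ODC1, the ornithine decarboxylase that makes putrescine, stood at 250.5 ± 15.6 CPM in Control, 205 ± 15.2 in OSI, 259 ± 16.6 in DAC and 242 ± 61.2 in DAC+OSI (SD, n = 3 each), and no treated group was called against Control. AMD1 makes the aminopropyl donor that the later synthases use. Its libraries gave 104.6, 67.2 and 85.9 CPM in Control, 63.5, 53.9 and 53.1 in OSI, 80.1, 82.7 and 78.2 in DAC, and 56.2, 21.5 and 52.9 in DAC+OSI. The OSI and DAC+OSI values of AMD1 all lay below those of Control. It fell by 0.98 ± 0.28 on the log2 scale under DAC+OSI (edgeR adjusted p = 0.0193), and OSI, at -0.60, was not called with all 12 libraries (adjusted p = 0.163) but was called, at -0.74, without both deviating ones. The fall under DAC+OSI lost its call without Control 1, and was 0.68 without DAC+OSI 2.

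SMS, which makes spermine, fell by 0.39 ± 0.13 under DAC+OSI on the log2 scale (edgeR adjusted p = 0.0381), from 129.5 ± 5.24 to 99.1 ± 15.5 CPM (SD, n = 3 each), and lost its call without Control 1 or Control 3. SRM, which makes spermidine, was not called, at 29.6 ± 8.30 CPM in Control and 25.6 ± 12.4 in DAC+OSI, but fell by 0.44 under DAC+OSI without both deviating libraries. ARG2, the mitochondrial arginase that yields ornithine, fell by 1.57 ± 0.30 under OSI (adjusted p = 0.00294), from 6.74 ± 0.915 to 2.27 ± 0.161 CPM. Its interaction of 1.78 ± 0.42 was called (adjusted p = 0.0412), with 2.92% of all genes called in that test, but not when any 1 of 9 libraries (all of Control, OSI and DAC) was left out. Over the 12 fits that left out 1 library it ran from 1.24 to 2.07. MAT2A, which makes S-adenosylmethionine, fell by 0.42 under OSI and 0.60 under DAC+OSI, and MAT2B, its partner subunit, rose by 0.45 under DAC+OSI. The fall of MAT2A under OSI lost its call in 10 of the 12 fits that left out 1 library, and the 12 ran from 0.34 to 0.51 lower, while the rise of MAT2B lost its call without Control 1, Control 3 or DAC+OSI 3. Without both deviating libraries the changes were -0.29 for SMS, -1.61 (OSI) and 1.29 (interaction) for ARG2, -0.34 (OSI) and -0.68 (DAC+OSI) for MAT2A and 0.53 for MAT2B, all called. In the same fit, 1 of the 8 synthesis genes rose in each treated group and 4, 3 and 5 fell under OSI, DAC and DAC+OSI, where 42.3%, 25.8% and 40.9% of all genes were called.

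None of 5 antizymes and antizyme inhibitors, which control the turnover of ODC1 and polyamine uptake, was called in any comparison with all 12 libraries. OAZ1 gave log2 changes of 0.24, 0.12 and 0.21 under OSI, DAC and DAC+OSI, and AZIN1 gave -0.15, 0.28 and 0.13. None of 5 genes of methylthioadenosine salvage was called either. Without both deviating libraries, the antizyme list had 2 higher and 1 lower under OSI, 1 higher under DAC and 1 higher under DAC+OSI, and the salvage list had 2 lower under OSI, 1 higher under DAC and 0 called under DAC+OSI. Of 7 transport genes tested, SLC18B1, a vesicular polyamine transporter, fell by 0.90 under OSI (edgeR adjusted p = 0.0248) and by 0.79 under DAC+OSI (adjusted p = 0.0329). Without DAC+OSI 2 the latter was 0.53, and its call was lost without Control 1 or Control 3, while the call under OSI was lost without any 1 OSI library, Control 1 or Control 3. SLC3A2 fell by 0.63 under OSI, a call lost without Control 2 (0.48) or any 1 OSI library. SLC12A8 rose by 0.45 under DAC+OSI, which was 0.28 without DAC+OSI 2 and not called without Control 1 or Control 3. SLC18B1 fell by 0.97 under OSI and 0.58 under DAC+OSI, SLC3A2 fell by 0.48 under OSI, and SLC12A8 rose by 0.36 under DAC+OSI, when both deviating libraries were left out. Of the 4 genes of hypusination, the spermidine-dependent modification of the translation factor eIF5A, EIF5A itself fell by 0.45 ± 0.12 under OSI (adjusted p = 0.0170) and by 0.67 ± 0.12 under DAC+OSI (adjusted p = 0.000946). EIF5A2 fell by 0.92 under DAC+OSI (adjusted p = 0.00886). The call of EIF5A under OSI was lost without Control 2 (0.35), OSI 2 or OSI 3. In the fit without both deviating libraries EIF5A fell by 0.35 and 0.64 and EIF5A2, under DAC+OSI, by 0.72. With all 12 libraries DAC alone called 0 of the genes of these 4 lists, where 9.43% of all genes were called. In the fit without both, where 25.8% were called, it called 1 transport gene higher and 1 lower and 1 hypusination gene lower beside the antizyme and salvage genes above.

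**Figure D5:**
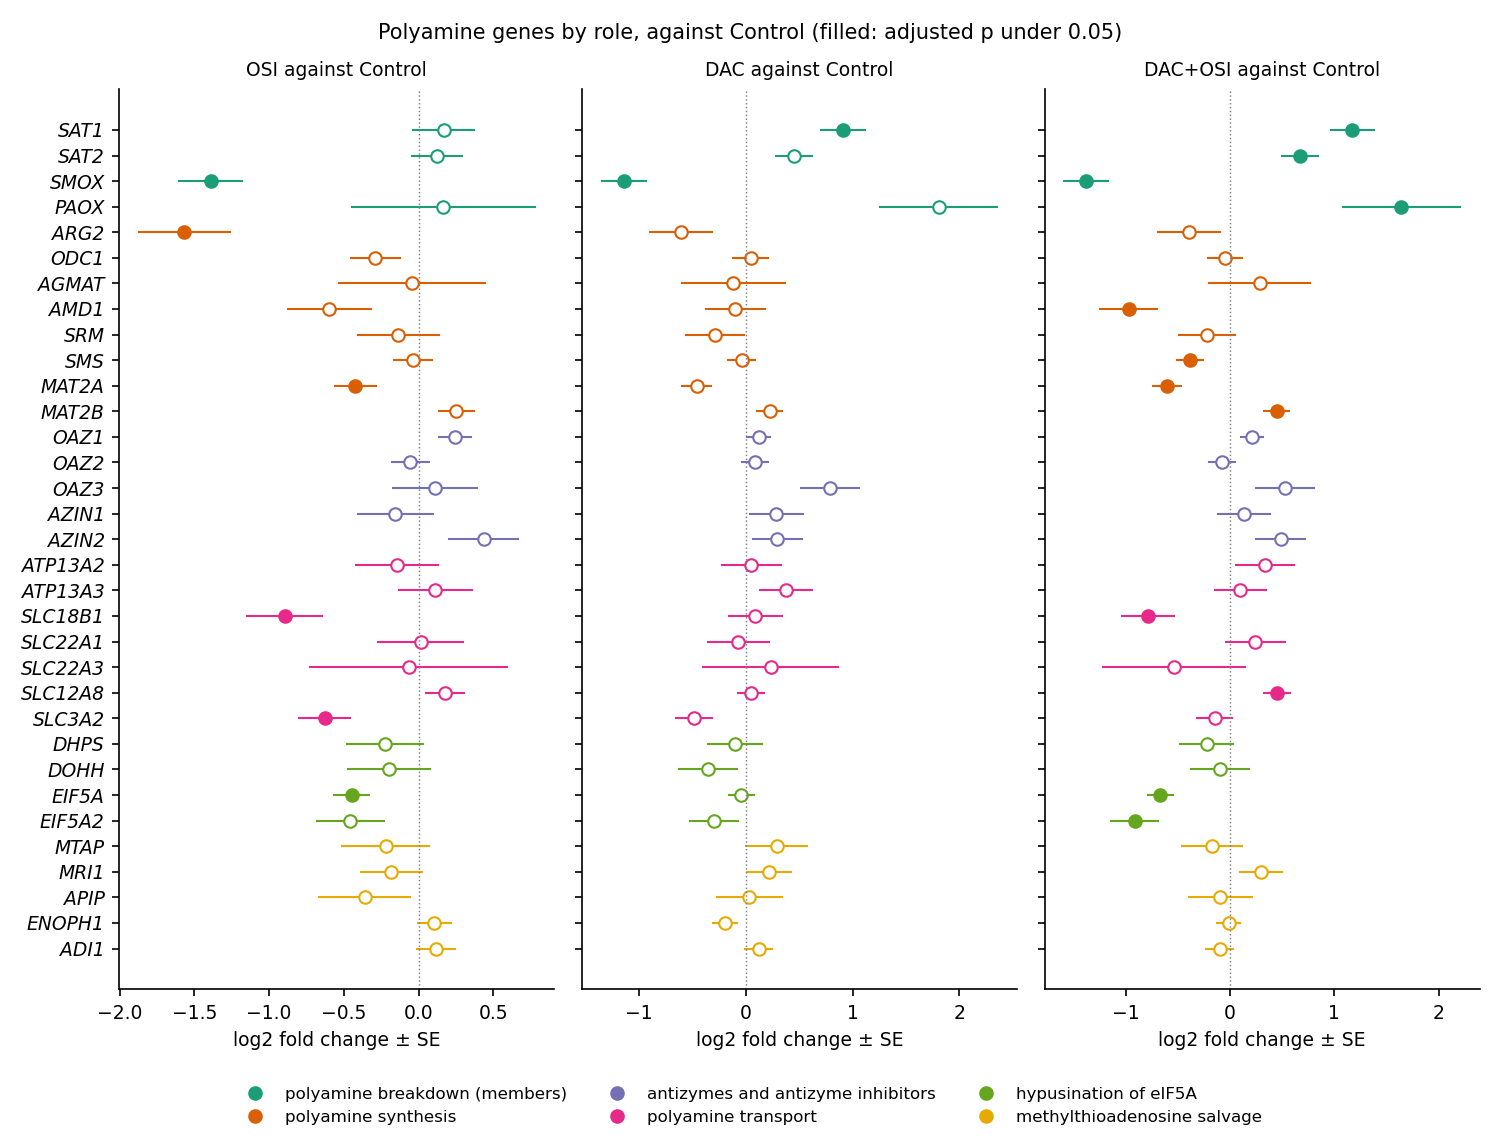
log2 fold change ± SE against Control under OSI, DAC and DAC+OSI for the tested genes of 6 polyamine lists (colours), from the edgeR fit of all 12 libraries, filled where the adjusted p was under 0.05; the panels have different axis ranges. SAT1 is filled to the right of 0 under DAC and DAC+OSI, at 0.92 and 1.17, and SMOX is filled to the left in all 3 panels.

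Amine oxidases other than SMOX and PAOX were also counted. Of 7 tested, 2 rose and 4 fell under OSI, 0 were called under DAC, and 1 rose and 3 fell under DAC+OSI, where 18.9%, 9.43% and 28.1% of all genes were called. AOC2 and AOC3, copper amine oxidases, fell by 1.1 and 1.33 under OSI (edgeR adjusted p = 0.000361 and 0.000444) and by 1.04 and 1.33 under DAC+OSI. MAOB, a mitochondrial monoamine oxidase, fell by 2.30 ± 0.28 under DAC+OSI (adjusted p = 5.90e-05). Its level was low, at 2.20 ± 0.11 CPM in Control and 0.46 ± 0.10 in DAC+OSI (SD, n = 3 each). The DAC+OSI libraries held 24, 12 and 26 counts of MAOB. AOC1, which oxidises putrescine and histamine, rose by 1.26 under OSI (adjusted p = 0.00163). Each of these changes kept its call when any 1 library was left out. With both deviating libraries left out, AOC2 and AOC3 fell by 0.99 and 1.39 under OSI and by 1.05 and 1.3 under DAC+OSI, MAOB fell by 2.44 under DAC+OSI, and AOC1 rose by 1.41 under OSI.

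Of 12 genes that dispose of peroxide and aldehydes, 2 rose and 1 fell under OSI, and 1 rose in each dauricine group, where 18.9%, 9.43% and 28.1% of all genes were called. Without both deviating libraries 5 rose and 1 fell, 3 rose and 1 fell, and 2 rose and 1 fell, beside 42.3%, 25.8% and 40.9%. The gene higher in both dauricine groups was CAT, the catalase of the peroxisome, with 49.1 ± 5.64 CPM in Control (42.9 to 54.0), 51.8 ± 0.631 in OSI (51.3 to 52.6), 90.02 ± 7.96 in DAC (85.0 to 99.2) and 71.9 ± 6.23 in DAC+OSI (64.9 to 76.8; SD, n = 3 each). CAT rose by 0.88 ± 0.12 on the log2 scale under DAC (edgeR adjusted p = 0.000892) and by 0.55 ± 0.12 under DAC+OSI (adjusted p = 0.00484), without overlap with Control. ALDH7A1, an aldehyde dehydrogenase, rose by 0.91 ± 0.13 under OSI (adjusted p = 0.000433), and its interaction was -0.91 (adjusted p = 0.0188), a call lost without OSI 1, OSI 2, DAC 2 or DAC 3. When both deviating libraries were left out, CAT rose by 0.78 and 0.53, and ALDH7A1 gave 0.87 under OSI and -0.76 in the interaction.

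ALOX15, the lipoxygenase tied to SAT1, stood at 27.7 ± 3.54 CPM in Control, 39.7 ± 0.708 in OSI, 24.7 ± 1.90 in DAC and 37.4 ± 13.1 in DAC+OSI (SD, n = 3 each). DAC+OSI libraries 1, 2 and 3 gave 29.9, 52.5 and 29.8 CPM, and only the second lay above the Control range of 24.1 to 31.2. None of the 3 was called against Control with all 12 libraries, and OSI, at a log2 change of 0.52 (edgeR adjusted p = 0.0877), was called, at 0.62, without both deviating libraries. The lipoxygenase list includes ALOX5AP, which encodes an activating protein rather than a lipoxygenase. Of the list's 6 tested genes, ALOXE3 fell in all 3 treated groups, by 1.45, 1.09 and 1.24 on the log2 scale. ALOX12B rose by 1.06 under DAC and 1.18 under DAC+OSI. Thus 1 of 6 was called under OSI and 2 of 6 under DAC and under DAC+OSI, beside 18.9%, 9.43% and 28.1% of all genes. Under DAC the call of ALOXE3 was lost in 9 and that of ALOX12B in 6 of the 12 fits that left out 1 library. Over all 12 of these fits ALOXE3 was 0.84 to 1.26 lower and ALOX12B 0.83 to 1.21 higher. ALOXE3 under DAC+OSI was 1.77 lower without DAC+OSI 2. Without both deviating libraries ALOXE3 fell by 1.17, 0.83 and 1.47, and ALOX12B rose by 1.23 and 1.16.

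Among regulators of SAT1, NFE2L2, which encodes the antioxidant regulator NRF2, was 97.3 ± 13.1 CPM in Control, 99.1 ± 4.08 in OSI, 93.0 ± 2.25 in DAC and 83.9 ± 20.9 in DAC+OSI, and was not called. PMF1, a polyamine-modulated factor that acts on SAT1 transcription with NRF2, fell by 0.61 under DAC+OSI (adjusted p = 0.00839). RELA, an NF-kB subunit, fell by 0.46 and 0.48 in DAC and DAC+OSI, with the call under DAC lost in 7 of the 12 fits that left out 1 library, which ran from 0.36 to 0.56 lower. PMF1 fell by 0.53 under DAC+OSI and RELA by 0.35 and 0.39 without both deviating libraries.

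Genes whose profile over the 12 libraries lay nearest to that of SAT1 were found among 11756 genes by the root mean square (RMS) difference of centred log2 CPM. PGRMC2, a haem-binding membrane protein, was nearest at 0.127, followed by CGAS (0.128), the cytosolic DNA sensor, ADSS2 (0.130), ELOVL5 (0.134), a fatty acid elongase, and SLC41A2 (0.137). SAT1's own RMS about its mean was 0.533. ELOVL5, for example, had group means of 54.0 CPM in Control, 59.1 in OSI, 108.5 in DAC and 129 in DAC+OSI. Nearest to SMOX, with an RMS of its own of 0.615, were ATP2C2 (0.134), a calcium pump of the secretory pathway, LTB4R (0.147), a leukotriene B4 receptor, PABPC1L (0.148), ALOXE3 (0.165) and DUSP7 (0.166), a phosphatase of MAP kinases. LTB4R had group means of 57.6, 22.4, 30.6 and 20.5 CPM in the same order. These profiles also share the libraries' depth and GC trends, so likeness is a description.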

How the data were processed

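The authors deposited raw read counts per Ensembl gene for 12 libraries. Per the labels' protocols, mRNA was enriched with oligo(dT) beads, fragmented and copied from random hexamers. Per the submitters' processing notes, CASAVA, HISAT2 and featureCounts were used. For annotation, genome build and strand handling, nothing is given in the sources used here. Symbols came from a gene name table (39178 identifiers matched), and lengths and GC content from GENCODE 29 (37919 matched).

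Counts were filtered with filterByExpr, scaled with TMM (trimmed mean of M values) and fitted by the quasi-likelihood method of edgeR 4.0.16 in R 4.3.3, with 1 mean per group and all 12 libraries. The biological coefficient of variation was 20.9%. P-values were two-sided and adjusted by the Benjamini-Hochberg method over the genes tested in each comparison, and calls needed an adjusted p below 0.05. The SE is the log2 change divided by the root of F. Levels are TMM-scaled CPM, with a prior count of 2 on log scales. Floors are not TMM-scaled (the factor of DAC+OSI 2 was 0.826) and cover counting error only.

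Members and lists were chosen with earlier results of these data known. Lists were described by counts, with at most 3 called genes named per list and comparison by smallest adjusted p, plus 9 genes named whether called or not. Of these, 1 gene is not reported here, nor is 1 list. The nearest genes were the 5 with the smallest RMS difference among those with a group mean of at least 5 CPM. Alternatives were other scalings, no filter, DESeq2 1.42.0, limma-voom (limma 3.58.1), only the groups compared, each library left out, both deviating libraries left out, a correction for GC content (lowess span 0.3), and the replicate number as a block. Same-numbered libraries of Control and DAC+OSI deviated together (correlations of 0.20 to 0.43). The number, taken from the sample titles, was fitted as a block only among the alternatives. The main fit and the exact permutation tests were unpaired. Control 2 and DAC+OSI 2 also share a GC trend, so these correlations cannot show whether the numbers mark pairs. For genes of the other lists, leaving out libraries was added after the data were seen.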

Additional observations from a re-analysis of the deposited data

How the results depend on the processing

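The calls of SAT1 in DAC+OSI against Control and against OSI and of SMOX in each treated group against Control held under all 22 alternatives. The log2 values below are those that lost or gained a call or changed sign. Relative log expression scaling gave 1.62 and upper quartile scaling 1.63 for PAOX in DAC against OSI, neither called. Without the filter, PAOX lost its calls in DAC+OSI against Control (1.61) and DAC against OSI (1.62), SMOX in DAC+OSI against OSI was -0.021, and its interaction was called (1.16). DESeq2 called PAOX in DAC against Control (1.82) and the interaction of SMOX (1.17). Limma-voom gave PAOX -0.14 in OSI against Control, 1.75 in DAC against Control and 1.69 in DAC+OSI against OSI, both called, and SMOX -0.063 in DAC+OSI against OSI. With only the groups compared, SAT2 (0.44) and PAOX (1.80) were called in DAC against Control, and SAT2 (0.31) and SMOX (0.23) in DAC against OSI, while SAT2 (0.63) and PAOX (1.61) in DAC+OSI against Control and SAT2 in DAC+OSI against OSI (0.54) lost theirs. PAOX in OSI against Control was then filtered out.

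Without Control 2 and DAC+OSI 2, DAC against Control was called for SAT2 (0.45) and PAOX (2.0), DAC+OSI against DAC for SAT1 (0.49), SAT2 (0.38) and SMOX (-0.53), DAC against OSI for SAT2 (0.31) and SMOX (0.23), and the interaction for SAT1 (0.43) and SMOX (0.64). PAOX in DAC+OSI against Control (1.70) lost its call and SMOX in DAC+OSI against OSI was -0.30. The GC correction called PAOX in DAC against Control (1.90), SAT1 (0.41) and SMOX (-0.55) in DAC+OSI against DAC, SMOX in DAC against OSI (0.45) and its interaction (0.93). It ended the calls of PAOX in DAC+OSI against Control (1.46) and SAT2 in DAC+OSI against OSI (0.58), and gave SMOX -0.10 there. The cause of these changes was not tested.

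Same numbers in other pairs of groups correlated at -0.06 to 0.08, and 2 to 6 of 6 libraries correlated best with their own number. Whether those libraries share more than a number is not given in the labels. With the replicate block, PAOX was not called in DAC+OSI against Control (1.64) or DAC against OSI (1.71), SMOX in DAC+OSI against OSI was -0.032, and its interaction was called (1.08). With the block and the GC correction together, PAOX was -0.061 in OSI against Control, 1.87 (called) in DAC against Control and 1.44 (not called) in DAC+OSI against Control. SAT2 was 0.54 in DAC+OSI against OSI (not called) and -0.006 in the interaction. SMOX was -0.10 in DAC+OSI against OSI, -0.55 in DAC+OSI against DAC, 0.45 in DAC against OSI and 0.92 in the interaction, the last 3 called, and SAT1 in DAC+OSI against DAC (0.40) was called. The block changed no other call of the 4 genes.

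Leaving out 1 library at a time moved the log2 values of results that changed a call or a sign as follows. SAT1 ran from 0.79 to 0.95 in DAC against Control, 0.12 to 0.49 in DAC+OSI against DAC, 0.65 to 0.82 in DAC against OSI and -0.044 to 0.32 in the interaction. SAT2 ran from 0.35 to 0.50 in DAC against Control, 0.38 to 0.68 in DAC+OSI against OSI and -0.047 to 0.25 in the interaction. SMOX ran from -0.31 to 0.18 in DAC+OSI against OSI, -0.54 to -0.052 in DAC+OSI against DAC and 0.86 to 1.35 in the interaction. PAOX ran from -0.95 to 0.52 in OSI against Control, 1.67 to 1.99 in DAC against Control, 1.48 to 1.83 in DAC+OSI against Control, 1.103 to 2.57 in DAC+OSI against OSI, 1.27 to 2.73 in DAC against OSI and -0.68 to 0.79 in the interaction. Per longest transcript, the log2 ratio of SAT1 to SMOX levels was 0.23 in Control, 1.77 in OSI and 2.27 in DAC, because SAT1's longest transcript is much shorter than its merged exons. The number of all genes called was 3926 (2648 to 9076 over the alternatives) in OSI, 1964 (782 to 5541) in DAC and 5860 (2958 to 8778) in DAC+OSI against Control, 3533 (1800 to 8730) in DAC+OSI against OSI, 2211 (797 to 5092) in DAC+OSI against DAC, 4311 (2614 to 10332) in DAC against OSI and 608 (330 to 4339) in the interaction. Depth limits PAOX, with at most 23 counts in a library.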
